A study of Mus musculus with 8 samples.

Results

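Acetylcholine, adrenaline and noradrenaline, dopamine and histamine act on cells through a small set of receptor genes, and those genes are described here in mouse brain tissue after stroke and in CD4 T cells taken from such brains. The genes were chosen by symbol: the muscarinic receptors (Chrm), the nicotinic receptor subunits (Chrn), the alpha and beta adrenoceptors (Adra1, Adra2 and Adrb), the dopamine receptors Drd3, Drd4 and Drd5, and the histamine receptors (Hrh). The rule names 37 genes, of which 36 had a probe among the 22911 genes that could be named on the array. Hrh2 had no named probe. The rule used symbols alone, but it was chosen with earlier results of these data known.

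RNA was measured on 8 one-colour microarrays, 1 array for each of 8 groups. The 4 tissue arrays held whole brain tissue (the third slice, on the ischemic side) at day 14 from wild type (WT) mice after sham surgery, WT mice after stroke, DEREG mice after sham surgery and DEREG mice after stroke. The 4 T cell arrays held CD4+ regulatory T cells (Treg) and the remaining CD4+ T cells (nonTreg) from the ischemic brain of WT mice at day 14 after stroke, and the same kinds of cell from the spleen of untreated mice. DEREG mice carry a transgene in which Foxp3 regulatory sequence drives a diphtheria toxin receptor fused to a green fluorescent protein, so that Treg can be removed with toxin. The labels used here do not say whether toxin was given, how many mice a sample pooled, or how Treg were separated. Each group is 1 array, no difference between groups was tested, and the values describe these libraries.

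Muscarinic, adrenergic, dopamine and histamine receptors are G protein-coupled: the Gq group (Adra1, Chrm1, Chrm3, Chrm5, Hrh1) raises intracellular calcium, the Gi group (Adra2, Chrm2, Chrm4, Drd3, Drd4, Hrh3, Hrh4) lowers cyclic AMP, and the Gs group (Adrb, Drd5, Hrh2) raises it. Nicotinic receptors are cation channels built from subunits, with a muscle type (Chrna1, Chrnb1, Chrnd, Chrne, Chrng) and neuronal types. In brain most of these receptors sit on neurons, where they set how cells answer to cholinergic, noradrenergic, dopaminergic and histaminergic fibres, and several are also made by glia, vessels and leukocytes.

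Promoter sequence is shown for 4 receptor genes, those among the genes with sequence at hand that held a motif marked below in capitals. Of these, Adra2c, Chrna7 and Hrh3 were lower on both ischemic arrays, and Adra2a stayed within 1.11-fold of sham in both genotypes. Each sequence is the 250 bases before the RefSeq start of the gene in assembly GRCm38.p6, written 5′ to 3′ on the gene's own strand. Capitals in Hrh3 mark the core of an RE1 element, spelled CAGCACC, then any 2 bases, then GGACAG, the sequence bound by the neuronal gene repressor REST; it is read on the opposite strand and begins 183 bases before the start. Capitals in the other 3 mark an E box spelled CACGTG.
Hrh3, chr2:180104408-180104657, minus strand: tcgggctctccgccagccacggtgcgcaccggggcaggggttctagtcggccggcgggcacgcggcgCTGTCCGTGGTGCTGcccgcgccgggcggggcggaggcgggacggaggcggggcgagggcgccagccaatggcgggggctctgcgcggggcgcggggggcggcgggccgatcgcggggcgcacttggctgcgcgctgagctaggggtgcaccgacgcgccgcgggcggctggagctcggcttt
Adra2c, chr5:35278316-35278565, plus strand: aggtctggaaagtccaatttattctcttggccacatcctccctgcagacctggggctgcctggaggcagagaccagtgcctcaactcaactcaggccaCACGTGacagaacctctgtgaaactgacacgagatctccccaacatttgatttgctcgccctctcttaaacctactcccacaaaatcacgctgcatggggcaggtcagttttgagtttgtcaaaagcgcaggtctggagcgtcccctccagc
Chrna7, chr7:63212527-63212776, minus strand: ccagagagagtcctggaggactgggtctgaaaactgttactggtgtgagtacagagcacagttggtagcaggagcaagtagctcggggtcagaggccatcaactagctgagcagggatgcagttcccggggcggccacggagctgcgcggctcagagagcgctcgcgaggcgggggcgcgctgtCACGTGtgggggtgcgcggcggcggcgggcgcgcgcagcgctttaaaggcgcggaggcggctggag
Adra2a, chr19:54045009-54045258, plus strand: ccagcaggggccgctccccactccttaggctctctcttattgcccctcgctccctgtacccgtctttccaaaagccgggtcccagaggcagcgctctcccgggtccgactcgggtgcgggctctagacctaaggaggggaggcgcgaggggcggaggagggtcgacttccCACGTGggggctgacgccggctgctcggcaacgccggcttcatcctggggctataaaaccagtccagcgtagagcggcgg

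Windows of this kind were at hand for 27 of the 37 receptor genes, 33 windows in all, and motifs were searched on both strands. The RE1 core was found in the Hrh3 window alone among the 33, and in 11 of 32851 windows of all genes (0.0335%). CACGTG was found in 3 of the 33 windows, against 6.02% of all windows, and it stood in front of Adra2a, whose signal hardly moved, as well as Adra2c and Chrna7. The GC box, GGGCGG, was in 18 of the 33 windows against 32.7% of all, and the median GC content was 60% against 52.4%. Overlapping windows of a gene were counted apart, here and over all genes. The overlapping windows of Hrh2 and of Hrh1 each held a GC box, so the 33 are not independent. A full cyclic AMP response element, TGACGTCA, was in none of the 33 and in 1.55% of all. These matches describe the letters of a short window and say nothing of whether a factor binds.

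In brain tissue 28 of the 36 receptor genes with a probe gave a signal well above background on 1 or more arrays, and 20 on all 4; over all named genes the shares were 76.0% and 66.1%. All 9 adrenoceptors and all 5 muscarinic receptors were among the 28, with 10 of 16 nicotinic subunits, 2 of 3 dopamine receptors and 2 of 3 histamine receptors. The 8 not well above background on any tissue array were Chrna1, Chrnd and Chrng of the muscle-type channel, the neuronal-type subunits Chrna3, Chrna5 and Chrnb3, the dopamine receptor Drd3 and the histamine receptor Hrh4. Of the 5 muscle-type subunits only Chrnb1 and Chrne were detected. Between 21 receptors (DEREG ischemia) and 27 (DEREG sham) were above background per array, with 25 in WT sham and 23 in WT ischemia. Of all probes, named or not, 62.0% (WT sham), 65.1% (WT ischemia), 64.2% (DEREG sham) and 64.7% (DEREG ischemia) were well above background.

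**Figure D1:**
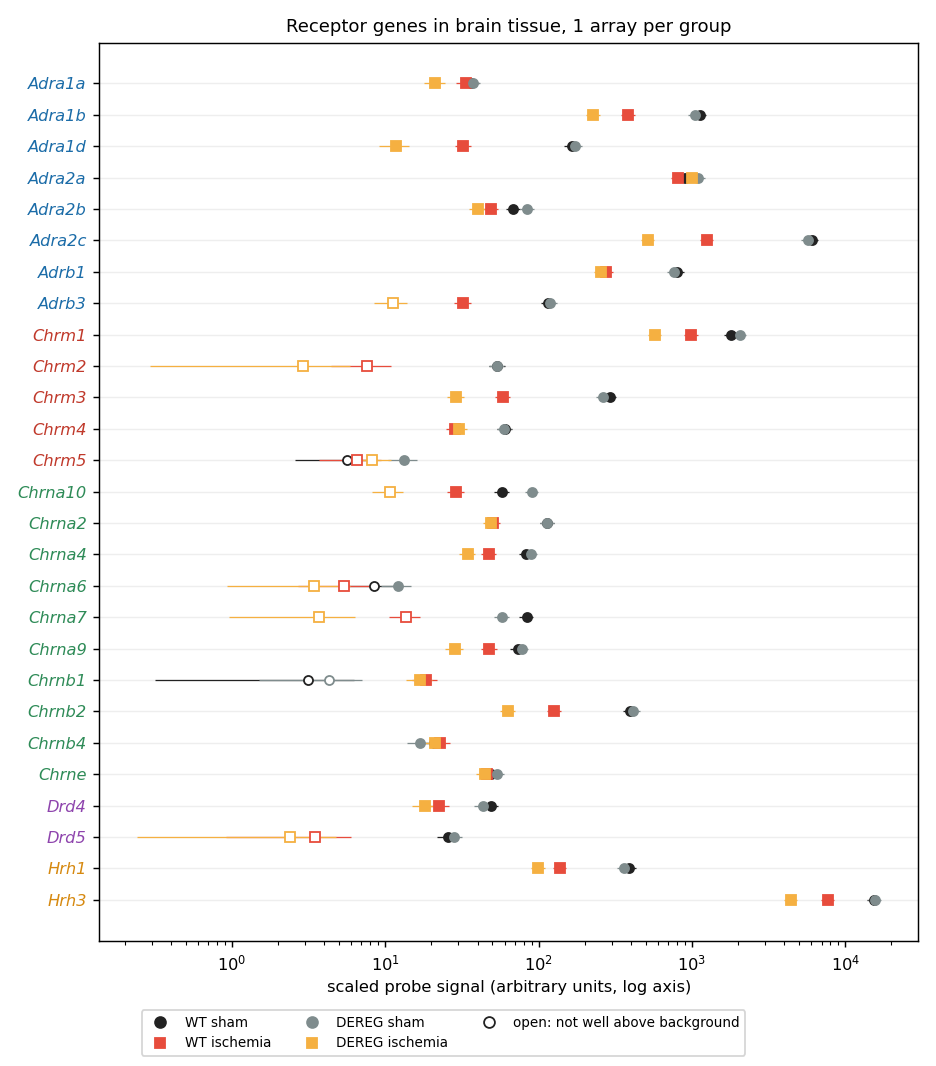
Scaled probe signal (log axis) of 27 receptor genes detected well above background in tissue, with 1 point per array and bars giving the scanner software's own error. Squares (ischemia) lie left of circles (sham) for most genes, and Adra2a, Chrnb4 and Chrne have all 4 points close together; distances between genes are not comparable, since each row is another probe.

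Receptor transcripts were mostly lower in tissue after stroke, in both genotypes. In WT mice 26 receptors could be compared between ischemia and sham, and 15 were at least 2-fold lower; of all 16968 genes compared, 18.4% were at least 2-fold lower and 18.8% higher. The median receptor difference was -1.09 on the log2 scale, a 2.13-fold lower signal, against -0.14 over all genes. In DEREG mice 19 of 28 receptors were at least 2-fold lower; of 17161 genes 22.1% were lower and 22.4% higher, with a median of -1.41 against -0.06. Receptor probes are often dim, so the share was also taken over genes with a mean scaled signal under 100: there 16.9% were at least 2-fold lower and 27.1% higher in WT, and 20.3% and 30.5% in DEREG. With normexp background correction, 7 of 26 receptors in WT and 11 of 28 in DEREG passed 2-fold, all of them lower. Under that correction 26.5% of all genes passed in either direction in WT and 12.9% were lower, against 33.5% and 16.7% in DEREG, so the share of receptors passing in WT was near that of all genes when direction is left aside. A scaled signal is a probe's processed brightness after the 4 arrays of a set were brought to a common 75th percentile, and the ± given below is the scanner software's own error carried to the log2 difference, a technical error that holds no spread between mice.

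In bulk tissue, fewer cells of a type and less RNA per cell cannot be told apart. All 7 pan-neuron markers were also at least 2-fold lower with stroke in each genotype, with a median of -1.86 in WT and -2.69 in DEREG, and their summed scaled signal was 175781 (WT sham), 50030 (WT ischemia), 163923 (DEREG sham) and 23097 (DEREG ischemia). All 10 striatal projection neuron markers (medians -3.02 and -3.67) and all 8 interneuron markers (-1.51 and -2.55) were at least 2-fold lower in both genotypes. Among 7 oligodendrocyte markers none passed 2-fold in either genotype (medians -0.16 and -0.02). Of 8 microglia markers 7 in WT and 8 in DEREG were at least 2-fold higher (medians 2.75 and 3.19), and all were above background on every tissue array. The receptor medians thus lay between those of oligodendrocyte and pan-neuron markers; the part that cell content has in the receptor values was not tested.

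Among the alpha-1 adrenoceptors, which couple to Gq and serve noradrenaline in cortex and vessels, Adra1b and Adra1d were lower after stroke. Adra1b had a scaled signal of 1121 in WT sham, 385 in WT ischemia, 1040.2 in DEREG sham and 228 in DEREG ischemia, which is 2.91-fold lower in WT (-1.54 ± 0.20) and 4.57-fold lower in DEREG (-2.19 ± 0.20). Adra1d read 164, 32.4, 173 and 11.7 on the same arrays, 5.07-fold lower in WT (-2.34 ± 0.23) and 14.8-fold lower in DEREG (-3.89 ± 0.35), the largest fall of any receptor measured on both arrays in either genotype. Both sham arrays were thus high for both genes, and the DEREG ischemia array was the lowest of the 4, an order not counted over all genes. A second Adra1d probe was 3.30-fold lower in WT and at least 4.76-fold lower in DEREG. Adra1a read 36.3, 33.4, 37.2 and 21.1, and passed 2-fold in neither genotype (-0.12 ± 0.26 and -0.81 ± 0.29).

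The 3 alpha-2 adrenoceptors, Gi-coupled receptors that also act as brakes on noradrenaline release, did not move together. Adra2c, which is strongly expressed in striatum, read 6027 in WT sham, 1254 in WT ischemia, 5745 in DEREG sham and 515 in DEREG ischemia, 4.81-fold lower in WT (-2.27 ± 0.20) and 11.1-fold lower in DEREG (-3.48 ± 0.20). Adra2a read 904, 814, 1098 and 994, a difference of -0.15 ± 0.20 in WT and -0.14 ± 0.20 in DEREG, each smaller than its technical error. The pair whose promoter windows above share the same E box differed in the size of its change, with Adra2c 11.1-fold lower and Adra2a within its technical error in DEREG. Adra2b read 68.4, 49.2, 84.0 and 40.2, and differed by -0.48 ± 0.23 in WT and was 2.09-fold lower in DEREG (-1.06 ± 0.23).

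Among the beta adrenoceptors, which raise cyclic AMP, Adrb1 and Adrb3 were lower. Adrb1, the main beta receptor of forebrain neurons, read 804 in WT sham, 276 in WT ischemia, 767 in DEREG sham and 256 in DEREG ischemia, a fall of near equal size in the 2 genotypes (2.91-fold and 2.99-fold). Adrb3, best known from fat cells, read 116, 32.0, 119.6 and 11.2, the last not well above background, so it was 3.62-fold lower in WT and at least 10.7-fold lower in DEREG. A second Adrb3 probe was at least 2.13-fold lower in WT and at least 3.67-fold lower in DEREG.

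Of the muscarinic receptors, the 4 compared in WT all lay below sham after stroke, with Chrm2, Chrm3 and Chrm4 lower by 2-fold or more. In DEREG, where 5 were compared, it was Chrm1, Chrm2 and Chrm3. Chrm3, a Gq-coupled receptor of hippocampal and cortical neurons, read 291 in WT sham, 58.6 in WT ischemia, 264 in DEREG sham and 28.9 in DEREG ischemia, 4.97-fold lower in WT (-2.31 ± 0.21) and 9.14-fold lower in DEREG (-3.19 ± 0.23). A second Chrm3 probe gave smaller falls, 3.06-fold in WT and 5.26-fold in DEREG. Chrm1, the most abundant muscarinic receptor of the forebrain, read 1807, 991, 2062 and 572, which is 1.82-fold lower in WT (-0.87 ± 0.20) and 3.60-fold lower in DEREG (-1.85 ± 0.20). Its other probes differed in size but not in sign: one gave 3.17-fold in WT and at least 4.87-fold in DEREG, the other 1.34-fold and 1.76-fold. The Gi-coupled autoreceptor Chrm2 read 53.7 and 53.5 on the sham arrays and was not well above background on the ischemic ones, at least 4.76-fold lower in WT and at least 4.94-fold lower in DEREG.

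Chrm4, a striatal Gi-coupled receptor, read 60.2, 28.6, 60.0 and 30.3, and the 2.10-fold fall in WT and the 1.98-fold fall in DEREG straddle the 2-fold line while differing by less than their errors. Its gene overlaps that of the growth factor midkine, Mdk, in the reference annotation. Chrm5, known from dopamine neurons, was above background only in DEREG sham, at 13.3. Its bound in DEREG, at least 1.23-fold lower, does not show a change of size.

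Of the 8 neuronal-type nicotinic subunits compared in DEREG tissue, 6 were at least 2-fold lower after stroke, and in WT 4 of 7 were. Neither of the 2 detected muscle-type subunits passed 2-fold in either genotype. Chrnb2, the common beta subunit of high-affinity nicotine binding in brain, read 397 in WT sham, 126 in WT ischemia, 416 in DEREG sham and 62.9 in DEREG ischemia, 3.15-fold lower in WT (-1.65 ± 0.21) and 6.61-fold lower in DEREG (-2.72 ± 0.21). Chrna4, its usual partner, read 82.9, 47.5, 88.8 and 34.5, 1.74-fold and 2.57-fold lower. Chrna7, which can form a calcium-permeable channel without any other subunit, read 83.7 and 57.7 on the sham arrays and was not well above background on either ischemic array, at least 6.09-fold lower in WT and at least 5.34-fold lower in DEREG. These 3 genes were thus highest on the sham arrays, an order whose share over all genes was not counted.

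Chrna2, of a class of cortical and hippocampal interneurons, read 114, 50.4, 114 and 48.6, lower by 2.25-fold and 2.35-fold. Chrna10, best known from the inner ear, read 57.8, 28.9, 90.6 and 10.7 (the last not well above background), 2.0-fold lower in WT, at the threshold itself, and at least 8.37-fold lower in DEREG. Its gene overlaps Art1 and that of Chrnb2 overlaps Adar. For Chrna9 the only probe above background was one for a noncoding transcript of the locus, at 73.0, 47.7, 77.4 and 28.4, while the probe for its coding transcript was above background on none of the 8 arrays. The noncoding transcript was 1.53-fold lower in WT and 2.73-fold lower in DEREG, and stands for Chrna9 among the 6 subunits counted lower in DEREG. Chrna6, of dopamine and retinal neurons, was detected in DEREG sham only, at 12.1.

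Chrnb4, Chrne and Chrnb1 did not follow the other subunits. Chrnb4, the beta subunit of autonomic ganglia, read 20.8, 22.8, 17.0 and 21.2 (0.13 ± 0.34 in WT and 0.33 ± 0.35 in DEREG). Chrne, the epsilon subunit of the adult muscle endplate, read 48.9, 46.4, 53.3 and 44.4 (-0.08 ± 0.24 and -0.26 ± 0.23). Chrnb1, the muscle beta subunit, was not well above background on the sham arrays (3.15 and 4.27) and stood at 18.4 and 17.0 on the ischemic ones, at least 1.53-fold and at least 1.62-fold higher. Of 5 skeletal muscle markers, Acta1, Mylpf and Tnnt3 were above background on all 4 tissue arrays, Myh4 in DEREG sham alone and Ckm on none. Their summed scaled signal was 635 (WT sham), 342 (WT ischemia), 711 (DEREG sham) and 287 (DEREG ischemia). With stroke Tnnt3 was 5.13-fold higher in WT and 4.94-fold higher in DEREG, and Acta1 was 3.48-fold and 7.04-fold lower. The part of muscle tissue in the Chrnb1 and Chrne values was not tested.

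Of the dopamine receptors, Drd4 and Drd5 were measured in tissue. Drd4, a Gi-coupled receptor of cortex and retina, read 48.8 in WT sham, 22.5 in WT ischemia, 43.1 in DEREG sham and 18.3 in DEREG ischemia, 2.17-fold and 2.36-fold lower. Drd5, the Gs-coupled relative of Drd1, read 25.6 and 28.0 on the sham arrays and was not well above background after stroke, at least 2.27-fold and at least 2.59-fold lower. Both genes were above background on both sham arrays. Their relatives outside the symbol rule, the striatal receptors Drd1 and Drd2, were 8.93-fold and 13.1-fold lower in WT, and 15.6-fold and at least 21.4-fold lower in DEREG.

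Of the histamine receptors, Hrh3 and Hrh1 were measured in tissue. Hrh3, the Gi-coupled receptor by which histamine limits its own release, whose promoter window above holds the RE1 core, read 15309 in WT sham, 7728 in WT ischemia, 15589 in DEREG sham and 4398 in DEREG ischemia, 1.98-fold lower in WT (-0.99 ± 0.20) and 3.54-fold lower in DEREG (-1.83 ± 0.20). A second probe gave 2.20-fold and 4.81-fold. Hrh1, the Gq-coupled receptor blocked by the older antihistamines, read 389.8, 138, 363 and 99.8, 2.83-fold lower in WT (-1.50 ± 0.21) and 3.63-fold lower in DEREG (-1.86 ± 0.21). A second Hrh1 probe was at least 2.48-fold lower in WT and at least 2.86-fold lower in DEREG. On the probes used, both genes were highest on the sham arrays and lowest in DEREG ischemia, an order not counted over all genes.

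**Figure D2:**
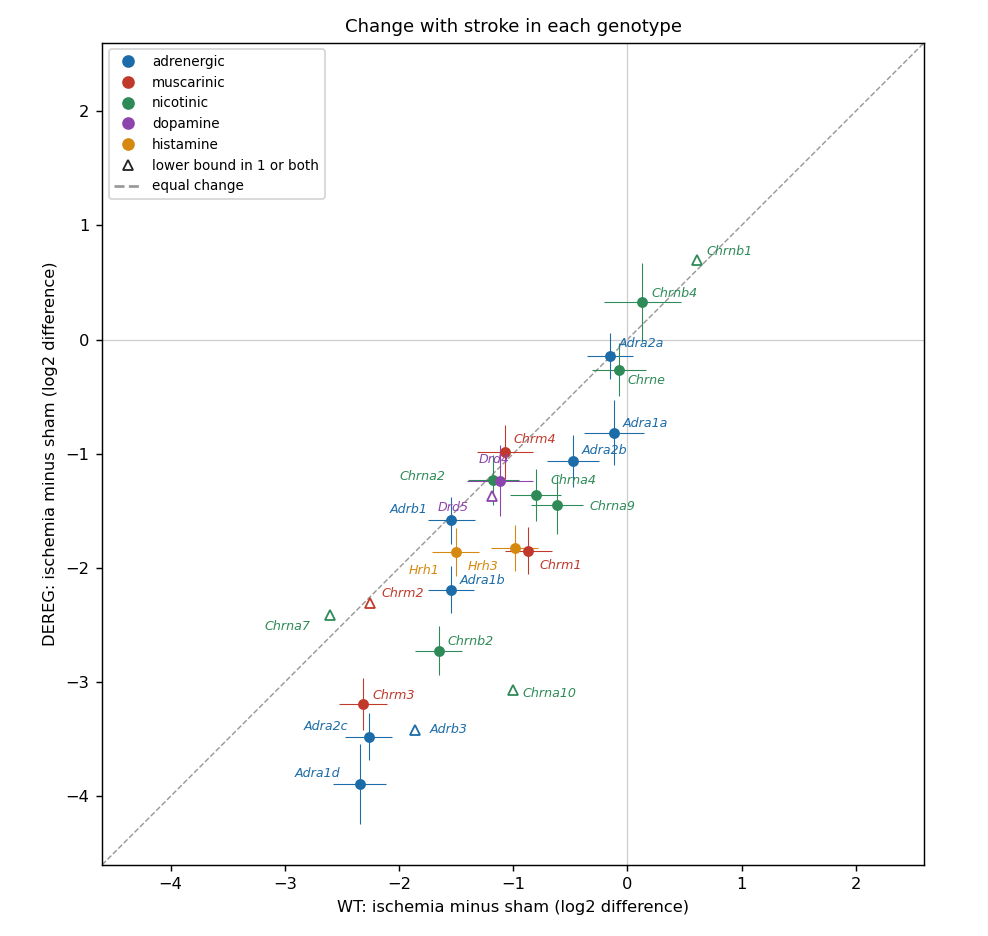
Log2 difference of ischemia from sham in WT (x axis) and DEREG (y axis) for 25 receptor genes compared in both genotypes, coloured by family; bars are the scanner software's error, triangles are lower bounds, and the dashed line marks equal change. Of these genes 14 lie at -1 or below on both axes, and 20 of the 25 lie below the dashed line.

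The WT and DEREG stroke comparisons share no array. Their values had a Pearson correlation of 0.90 over the receptors compared in both, bounds included, against 0.96 over all genes. Of 26 receptors compared in both, 14 were at least 2-fold lower in both; over all 16722 genes compared in both the count was 2902. Of these 26, 21 had a lower value in DEREG than in WT (80.8%, bounds included), against 43.5% of all genes. On the 20 receptors measured above background on all 4 arrays it was 17 (85%), against 44.1% of 15120 genes. The sham arrays of the 2 genotypes differed little: none of 27 receptors passed 2-fold between them (of all 16273 genes 0.59% were higher and 0.449% lower in DEREG), with a median of 0.04 and extremes of -0.53 for Chrna7 and 0.65 for Chrna10.

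Between the ischemic arrays, 6 of 23 receptors were at least 2-fold lower in DEREG and none higher, against 5.37% and 2.36% of 16857 genes. They were Adra1d (2.77-fold), Adra2c (2.43-fold), Chrm3 (2.02-fold) and Chrnb2 (2.01-fold), measured on both arrays, with Adrb3 (at least 2.86-fold) and Chrna10 (at least 2.67-fold). Chrm3 and Chrnb2 lie at the 2-fold line, at -1.02 ± 0.24 and -1.0 ± 0.22. The median was -0.46, and 21 of the 23 values were below 0. With normexp only Adra2c of these passed 2-fold, at -1.21. Adra2a was 1.22-fold higher in DEREG and Chrm4 1.06-fold higher.

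The change with stroke was then set against itself between the genotypes, as DEREG difference minus WT difference, which draws on all 4 tissue arrays and so repeats the values above in another form. Of 20 receptors, 3 were at least 2-fold lower and none higher, against 5.21% and 0.906% of 15120 genes. These 3 were Adra1d (-1.55 ± 0.42), Adra2c (-1.21 ± 0.29) and Chrnb2 (-1.07 ± 0.30), of which Adra2c alone passed 2-fold with normexp (-1.15); next came Chrm1 (-0.98 ± 0.29), Chrm3 (-0.88 ± 0.31) and Hrh3 (-0.84 ± 0.29). The median over the 20 was -0.57 against 0.06 for all genes. By coupling, the 6 Gq-coupled receptors had a median of -0.79 and all lay below 0, while the 6 Gi-coupled receptors had a median of -0.36, with Adra2a (0.01 ± 0.29) and Chrm4 (0.09 ± 0.34) above 0.

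The same difference of differences was taken for marker genes. It was at least 2-fold lower for 3 of 7 pan-neuron markers (median -0.84), 7 of 7 cortical excitatory neuron markers (-1.76), 1 of 9 striatal projection neuron markers (-0.80) and 2 of 8 interneuron markers (-0.72). No oligodendrocyte or microglia marker passed 2-fold, and their medians were 0.17 and 0.45. T cell markers were higher in DEREG ischemia, with a summed scaled signal of 5934 against 1877 in WT ischemia. Choroid plexus markers, of a tissue found in the ventricles, summed to 29195 in WT ischemia and 1567 in DEREG ischemia, with 297 and 631 in the shams. The part of neuron, T cell and choroid plexus content in the receptor values was not tested, and with 1 array per group the genotype and the individual sample cannot be told apart.

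**Figure D3:**
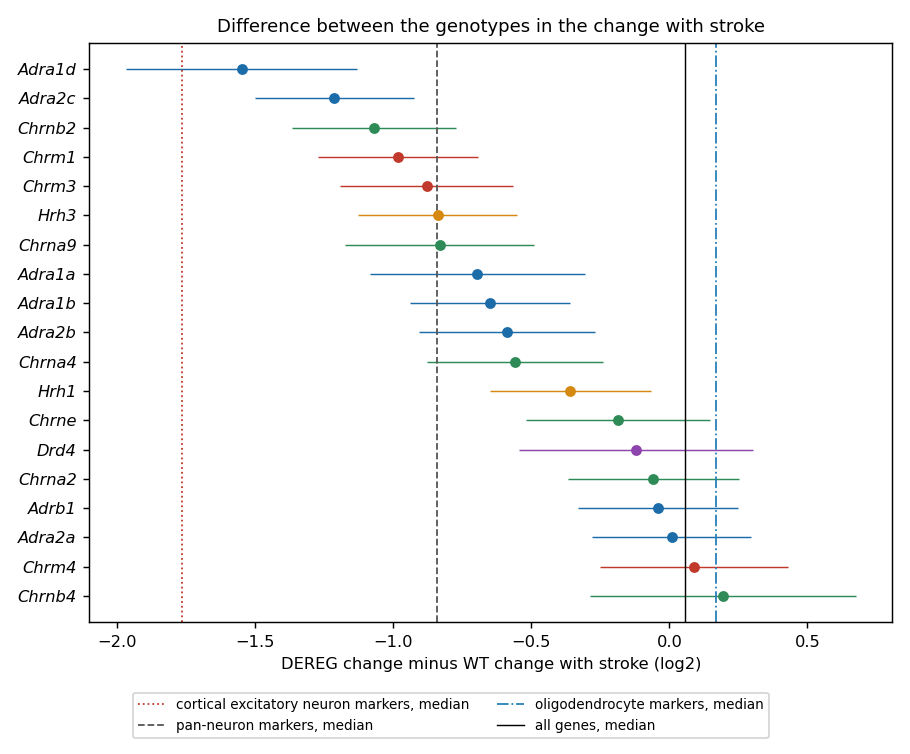
DEREG change with stroke minus WT change with stroke (log2) for 19 receptor genes above background on all 4 tissue arrays, ordered by value, with bars for the scanner software's error; vertical lines give the medians of 3 marker lists and of all genes. The receptors run from -1.55 (Adra1d) to 0.19 (Chrnb4), and 16 lie below 0.

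The genes that make, carry and destroy these transmitters were mixed in direction. Beside the counts for these genes, the nicotinic partners and the signalling genes stand 18.4% of all genes at least 2-fold lower and 18.8% higher with stroke in WT, and 22.1% lower and 22.4% higher in DEREG. In the acetylcholine list 6 of 9 genes were at least 2-fold lower with stroke in WT and 4 of 9 in DEREG: Chat, the synthesising enzyme, was 2.45-fold and 2.31-fold lower, and the esterase Ache 3.12-fold and 6.29-fold lower. Bche, a second esterase made largely outside neurons, was 2.99-fold and 2.06-fold higher. In the catecholamine list 5 of 12 genes in WT and 8 of 13 in DEREG were at least 2-fold lower and 1 higher in each; Th, the rate-limiting enzyme, was 3.36-fold and 3.35-fold lower. The gene that was higher was Gch1, which makes the cofactor of Th and of nitric oxide synthase, at 14.0-fold and 23.6-fold. Hdc, which makes histamine in neurons, mast cells and other leukocytes, was 5.98-fold higher in WT and 12.4-fold higher in DEREG, while both measured histamine receptors were lower. Of 6 neutrophil and mast cell markers, 5 were at least 2-fold higher with stroke in each genotype (medians 3.67 and 4.64). Their summed scaled signal was 976 (WT sham), 9395 (WT ischemia), 1276 (DEREG sham) and 29525 (DEREG ischemia), with Cxcr2, Cpa3 and Mcpt4 not well above background on the sham arrays. The part of such cells in the Hdc values was not tested.

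Of 13 chaperones and Ly6-type modulators of nicotinic receptors, 9 were at least 2-fold lower in each genotype, with 3 higher in WT and 2 in DEREG. Tmem35a, the chaperone known as NACHO, differed by -2.13 in WT and -3.13 in DEREG, Lynx1, a brake on nicotinic channels, by -1.96 and -2.55, and Lypd1, another such brake, by -2.35 and -4.03. Ly6e, an interferon-induced member of the Ly6 family, went the other way, at 2.43 and 2.89.

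Among signalling genes below the G protein-coupled receptors, the G protein alpha subunits and the adenylyl cyclases split in direction. Of 11 G protein alpha subunits, 4 were at least 2-fold lower and 3 higher in WT, and 5 and 4 in DEREG. The lower ones included Gnal, the striatal Gs-type subunit (-2.73 and -3.70), and Gnaz (-2.04 and -3.47); Gnai2 (1.51 and 1.81) and Gna15 (2.17 and 2.43), both abundant in blood cells, were higher. Of 9 adenylyl cyclases 5 were lower and 2 higher in each genotype, with Adcy5, the striatal form, at -2.42 and -2.87 and Adcy7, the form of leukocytes and microglia, at 3.98 and 4.23. Of 13 genes for cyclic AMP, G protein and calcium signalling in striatum, 9 were at least 2-fold lower in WT and 10 in DEREG. None was at least 2-fold higher, and Rgs4 (-3.76 and -4.72) and the phosphodiesterase Pde10a (-3.43 and -4.17) were among the lower ones. Gnas, the Gs subunit that serves the beta adrenoceptors, differed by -0.15 and -0.06.

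In the T cell arrays 11 of the 36 receptor genes gave a signal well above background on 1 or more arrays, and 5 on all 4; over all named genes the shares were 62.5% and 49.4%. Those found on every array included the adrenoceptor Adra2b and the nicotinic subunits Chrne, Chrna2 and Chrna9. Adra2a, Adra2c, Adrb1 and Hrh4 were found on both brain arrays and neither spleen array, Chrnb4 in brain Treg alone, and Chrnb2 on both spleen arrays and neither brain array. No muscarinic and no dopamine receptor of the rule was above background on any T cell array, although all 5 muscarinic genes were detected in tissue. Brain Treg had 10 of the receptors, brain nonTreg 9 and each spleen sample 6. Of all probes, named or not, 51.9% (brain Treg), 50.7% (brain nonTreg), 49.9% (spleen Treg) and 47.6% (spleen nonTreg) were well above background. The share of all genes found in 1 tissue only was not counted.

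The T cell labels were set against their markers first. All 7 T cell markers with a probe were above background on all 4 arrays. In the spleen, Foxp3 had a scaled signal of 7782 in Treg and was not well above background in nonTreg (12.2). In the brain it read 3843 in Treg and 726 in nonTreg, so Foxp3 was measurable in the sample labelled nonTreg there. The 8 microglia markers summed to 42520.5 (brain Treg), 16612 (brain nonTreg), 1126 (spleen Treg) and 1336 (spleen nonTreg). All 8 were above background on both brain arrays, and 5 of them, among them Tmem119, P2ry12 and Trem2, were not in spleen Treg. Of 8 macrophage and monocyte markers, 7 were above background on each brain array and 2 on each spleen array. For 6 endothelial markers it was 6 and 1. The CD8 T and NK cell markers summed to 3067, 7352, 1173 and 2210 in the same order of arrays. None of 7 cortical excitatory neuron markers was above background on either brain array. Other neuron and glia lists were partly above background, on brain and spleen arrays alike. In the same order of arrays it was 4, 4, 3 and 2 of 7 pan-neuron markers and 5, 4, 4 and 3 of 10 striatal projection neuron markers. For 8 interneuron markers it was 3, 2, 3 and 2, for 7 astrocyte markers 4, 3, 2 and 2. For 7 oligodendrocyte markers it was 6, 6, 4 and 4. The part of any of these other cell types in the brain values below was not tested. Tissue, stroke and the way the cells were isolated cannot be told apart between brain and spleen.

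**Figure D4:**
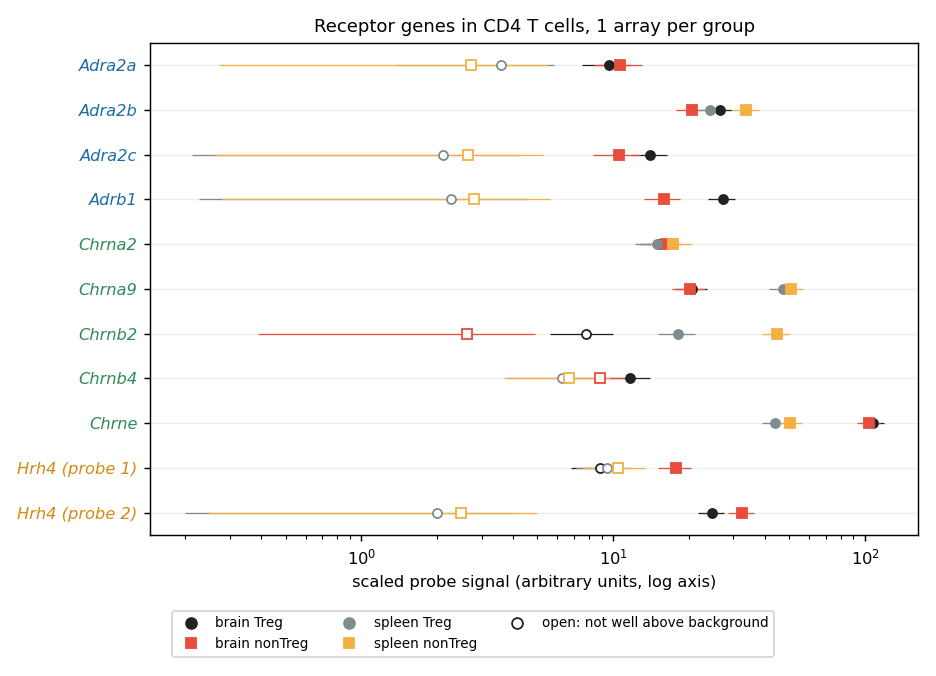
Scaled probe signal (log axis) on the 4 T cell arrays for 10 receptor genes detected there, with both Hrh4 probes; bars are the scanner software's error and open symbols are not well above background. Chrne is higher on both brain arrays, Chrna9 and Chrnb2 are higher on both spleen arrays, and the probes of Hrh4 do not agree.

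Adrb1, a Gs-coupled receptor of noradrenaline, was present on the T cell arrays at 27.2 and 15.9 in brain Treg and nonTreg and not well above background in spleen, which makes it at least 2.76-fold and at least 1.28-fold higher in brain. Adra2a (9.63 and 10.7) and Adra2c (14.0 and 10.5) were barely above the floor on the brain arrays. Adra2b read 26.5 and 20.6 in Treg and nonTreg of the brain, and 24.2 and 33.6 in those of the spleen, with no order by tissue.

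Between brain and spleen Treg 2 of 9 receptors compared were at least 2-fold higher and 2 lower, against 17.2% and 11.7% of 13779 genes; between brain and spleen nonTreg it was 1 and 2 of 8, against 17.8% and 12.1% of 13404. In the same order of arrays, Chrne read 108, 104, 43.8 and 50.2, 2.45-fold higher in brain in Treg (1.29 ± 0.22) and 2.07-fold in nonTreg (1.05 ± 0.22). The Chrna9 probe, that of the noncoding transcript, read 20.6, 20.1, 47.1 and 50.8, 2.29-fold and 2.52-fold lower in brain. Chrnb2 read 18.1 in spleen Treg and 44.7 in spleen nonTreg and was not well above background in brain, at least 2.13-fold and at least 4.90-fold lower there. Chrna2 was flat at 15.2, 16.2, 14.9 and 17.2. Counts of 4 among 9 and 3 among 8 stand beside 29.0% and 29.9% of all genes passing 2-fold in either direction, and with normexp background correction no receptor passed it in any of the 4 T cell comparisons.

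Treg were also set against nonTreg within each tissue. In the brain 1 of 10 receptors was at least 2-fold lower in Treg and none higher, against 2.86% and 4.63% of 13756 genes, and in the spleen 1 of 6 was lower, against 3.24% lower and 5.38% higher of 12546. Over both directions the all-gene shares were 7.49% in brain and 8.62% in spleen, and 1 receptor in each is too few to set apart from them. The spleen gene was Chrnb2, 2.47-fold lower in Treg (-1.31 ± 0.30). The brain gene was Hrh4, the Gi-coupled histamine receptor of leukocytes, whose probes disagreed: the one used read 8.86 (not well above background) in Treg and 17.7 in nonTreg, at least 2.0-fold lower in Treg, and the other 24.6 and 32.4, 1.31-fold lower. That second probe was not well above background in spleen and put Hrh4 higher in brain than in spleen, by at least 2.50-fold in Treg and 2.62-fold in nonTreg, where the first gave at least 1.44-fold in nonTreg and no fold in Treg.

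Among transmitter genes in the T cells, Hdc was 24.4-fold higher in brain than spleen Treg, at 478 against 19.6, and 22.4-fold higher in brain than spleen nonTreg, at 544 against 24.3. Of 6 neutrophil and mast cell markers, S100a8, S100a9 and Kit were above background on both brain arrays and none on either spleen array. Their summed scaled signal was 458 in brain Treg and 512 in brain nonTreg against 12.9 and 23.5 in the spleen samples, and Cxcr2, Cpa3 and Mcpt4 were not well above background on any of the 4. The part of such cells in the Hdc values was not tested. Chat, which some lymphocytes express, was above background in spleen Treg alone, at 14.9. Th read between 22.6 and 31.2 on the 4 arrays, and the differences between brain and spleen were 0.32 in Treg and 0.23 in nonTreg. Hdc stood at 546 in WT ischemia and 1066 in DEREG ischemia on the tissue arrays, which were scaled apart from the T cell arrays and are not compared with them.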

How the data were processed

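The deposited scanner files hold 1 array each, written by the scanner software (per the submitters' processing notes, Agilent Feature Extraction, release 10.7.1.1); the processed intensity is background-subtracted spot brightness on a linear scale, per the file headers. The deposited series table holds a linear signal, the processed intensity divided by about each array's 75th percentile, and served as an alternative. All 8 arrays lie on 1 slide.

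Of 56605 probes, 32994 matched 1 symbol through their RefSeq accession (GRCm38.p6 table, names and neighbouring genes only), 0 matched several and 23611 were unnamed. Spots of a probe were averaged, leaving out outlier flags, and the authors' intensity was taken to log2 and scaled by subtracting the array's 75th percentile, taken over all probes for tissue and, for T cells, over those well above background on every array of the set. A gene with several probes is represented by the one brightest on average in a set. It entered a comparison when either array was well above background; where the other was dim, the difference is "at least", against the higher of the dim value and the lowest value well above background on that array, and is left out where that gives no fold. A gene counts at 2-fold. The receptors detected are described; 1 of them is not reported here, though counts and medians hold it. No test between groups was run, nor an additive model of the 4 arrays in a set. The number of arrays limits the precision. The receptors and lists were chosen with earlier results of these data known.

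Alternatives were normexp (limma 3.58.1, R 4.3.3, offset 50, on median signals, since the files hold no mean signal column), quantile normalization, the percentile taken over the other set of probes, the median over probes, no filter on dim probes, only genes measured on both arrays, and the series table. The counting was tested on simulated data with changes placed in bright probes only, so the handling of dim probes and lower bounds was not tested. Promoter windows came from RefSeq (GRCm38.p6). Python 3.11.15 was used.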

Additional observations from a re-analysis of the deposited data

Results flagged for a closer look

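Between brain and spleen, 2 of the 5 receptors measured on both arrays of both cell kinds had opposite signs in Treg and nonTreg, and neither difference was tested. Adra2b differed by 0.13 ± 0.26 in Treg and -0.71 ± 0.27 in nonTreg, 0.84 apart. Chrna2 differed by 0.03 ± 0.35 in Treg and -0.09 ± 0.36 in nonTreg, 0.12 apart, well within the technical errors. In tissue, none of the 20 receptors set side by side had opposite signs in WT and DEREG.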

How the results depend on the processing

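Normexp background correction lowered the counts of receptors at 2-fold: 7 in place of 16 (WT stroke), 11 in place of 20 (DEREG stroke), 1 in place of 6 (DEREG against WT ischemia), 1 in place of 3 (difference of differences) and 0 in place of 4, 3, 1 and 1 in the T cell comparisons (brain against spleen Treg, the same for nonTreg, Treg against nonTreg in brain, and in spleen). Of all genes 26.5%, 33.5%, 3.41% and 3.25% then passed in either direction in the first 4, so the receptor shares (7 of 26, 11 of 28, 1 of 23 and 1 of 20) lay nearer those of all genes. It adds an offset of 50, above the signal of many receptor probes, and 34 of 54 values that passed 2-fold no longer did. Without a filter on dim probes the counts were 2 between the shams, 11 in the difference of differences, and 10, 8, 5 and 4 in the T cell comparisons in the same order. With only genes measured on both arrays they were 2 for brain against spleen Treg and 0 for brain Treg against nonTreg, where the median over probes also gave 0. Quantile normalization gave 5 in the difference of differences. Detection on every T cell array left 5 receptors of 11. Over 5 settings of single receptors, 705 of 779 values stayed within their technical error and 74 moved, 59 of them with normexp. None of the 270 values that had passed 2-fold changed sign, and changes of sign among the other values were not counted. No paired analysis was possible because each group has 1 array. Probes under the floor of the tissue arrays (10.5 to 12.1 scaled units) give bounds only, and the technical errors printed hold no spread between mice.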
